A study of Mus musculus with 8 samples.

Results

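Aminoacyl-tRNA synthetases were examined in mouse embryonic stem cells in which Rif1 had been knocked down. Their genes were taken by symbol, as a capital letter followed by "ars" with or without a final 1 or 2, together with Eprs, Farsa, Farsb, Pars2 and Ears2. This gave 72 of the 45101 probe sets of the array, for 35 of 18193 genes with a probe set of their own. Of these genes, 19 encode cytosolic enzymes and 16, with symbols ending in 2, encode mitochondrial ones. The aspartyl enzymes were not analysed here.

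A synthetase joins an amino acid to its tRNAs, and the loaded tRNAs feed the ribosome; the enzyme made from Eprs does so for both glutamate and proline. Most amino acids have a cytosolic enzyme and a separate nuclear-encoded enzyme that is imported into mitochondria, while Kars and Gars each supply both compartments. Several cytosolic enzymes sit together in a multisynthetase complex on the scaffold proteins Aimp1, Aimp2 and Eef1e1. Uncharged tRNA activates the kinase Gcn2 (gene Eif2ak4), which raises the transcription factor ATF4, and many cytosolic synthetase genes belong with amino acid synthesis genes to the targets of this amino acid response.

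Total RNA was measured on 8 Affymetrix arrays in 4 groups of 2. J1 cells (strain 129S4/SvJae) carried a control shRNA or an shRNA against Rif1 and were collected 48 h after transfection. F1 cells (C57BL/6xC3H) at passage 16 were labelled either control shRNA or Rif1 shRNA and came from the long-term, stable experiment. The cell line label of the F1 controls also names the stable Rif1 knockdown line, and whether that line is 1 clone is not stated. All cells were grown on feeder plates. Whether both arrays of a group came from different cultures is not stated, and the p-values therefore reflect the spread between these RNA samples alone, which may be technical.

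The deposited values are MAS5 signals on a linear scale, here called signal. J1 and F1 arrays had been scaled to different levels, with trimmed means of 192 to 196 and 299.8 to 308, so signals are set side by side only within a setting. Changes are differences of log2(signal + 18) between quantile-normalized arrays, and a gene is given at its brightest probe set. A gene passed at a limma adjusted p under 0.05. The brightest Rif1 probe set was left at 47.2% of control in J1 and 29.9% in F1 (limma adjusted p = 6.54e-05 and 3.23e-07). Stem cell markers were present throughout, with the lowest group mean at a signal of 547 among 10 markers.

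In F1 cells with Rif1 shRNA, 8 of the 19 cytosolic synthetases fell and 0 rose (limma), against 8.2% of all 14714 genes tested that were called lower and 10.6% called higher. At an unadjusted p under 0.05 the counts were 12 lower and 0 higher. The median standard error was 0.06 for the 19 genes and 0.11 over all genes, so smaller changes could pass among the 19. Their median log2 fold change was -0.19, beside -0.02 over all genes, and 17 of the 19 were below 0. The largest falls were those of the seryl, valyl and cysteinyl enzymes Sars, Vars and Cars. All of the falls were smaller than 2-fold.

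Sars, which charges tRNA with serine and also supplies the tRNA from which selenocysteine is made, had signals of 2681 and 2727 on the F1 control arrays and 1759 and 1565 on those with Rif1 shRNA. This is a log2 fold change of -0.76 (SE 0.06, limma adjusted p = 1.51e-05), or 59.2% of the control level remaining. Its other probe set also passed, at -0.85. On the J1 arrays the same gene read 1638 and 1643 in controls and 1796 and 1812 with Rif1 shRNA. The J1 log2 fold change was 0.13 and did not pass (limma adjusted p = 0.308). The groups did not overlap in either setting and lay in opposite orders. Such separation was common, as 31.1% of all genes lay wholly lower in F1 and 22.2% wholly higher in J1.

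Vars, the valyl enzyme, read 1300.1 and 1303 in F1 controls and 901 and 836 in knockdown cells, a log2 fold change of -0.61 (SE 0.07, limma adjusted p = 0.000159). Cars, the cysteinyl enzyme, went from 1082 and 1233 to 778 and 761 (log2 fold change -0.60, SE 0.08, limma adjusted p = 0.000337). For both genes every knockdown array lay below every control array, and about 65.4% and 65.8% of the control level was left. A dimmer probe set of Cars, with mean signals of 72.3 in controls and 64.0 in knockdown arrays, had -0.13 and did not pass (limma adjusted p = 0.501).

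The other 5 cytosolic genes that fell kept between 77.8% (Aars) and 81.4% (Gars) of the control level. Aars, the alanyl enzyme, read 3778 and 4106 in F1 controls and 3132 and 3214 with Rif1 shRNA (log2 fold change -0.36, SE 0.06, limma adjusted p = 0.00213), and its other probe set fell by 0.41. Lars, the leucyl enzyme, which also acts as a leucine sensor for mTORC1, read 3311 and 3494 against 2796 and 2671 (-0.36, SE 0.06, limma adjusted p = 0.00128). Nars, the asparaginyl enzyme, read 3709 and 3866 against 3155 and 3135 (-0.31, SE 0.05, limma adjusted p = 0.00128), and its other probe set fell by 0.35. The controls and knockdown arrays of these genes did not overlap.

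Gars, the glycyl enzyme of both compartments, read 5094 and 5226 in F1 controls and 4223 and 4344 in knockdown cells (log2 fold change -0.30, SE 0.05, limma adjusted p = 0.00313). Yars, the tyrosyl enzyme, read 1314 and 1266 against 1111 and 1026 (-0.31, SE 0.07, limma adjusted p = 0.00948). Both are given at their only probe set. Without Rif1 shRNA replicate 1 Gars had an adjusted p of 0.0516, and Yars had 0.0783 when F1 control replicate 1 was left out and 0.134 when F1 Rif1 shRNA replicate 2 was. The other 6 of the 8 genes passed under each of the 18 alternatives fitted to their probe sets.

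**Figure D1:**
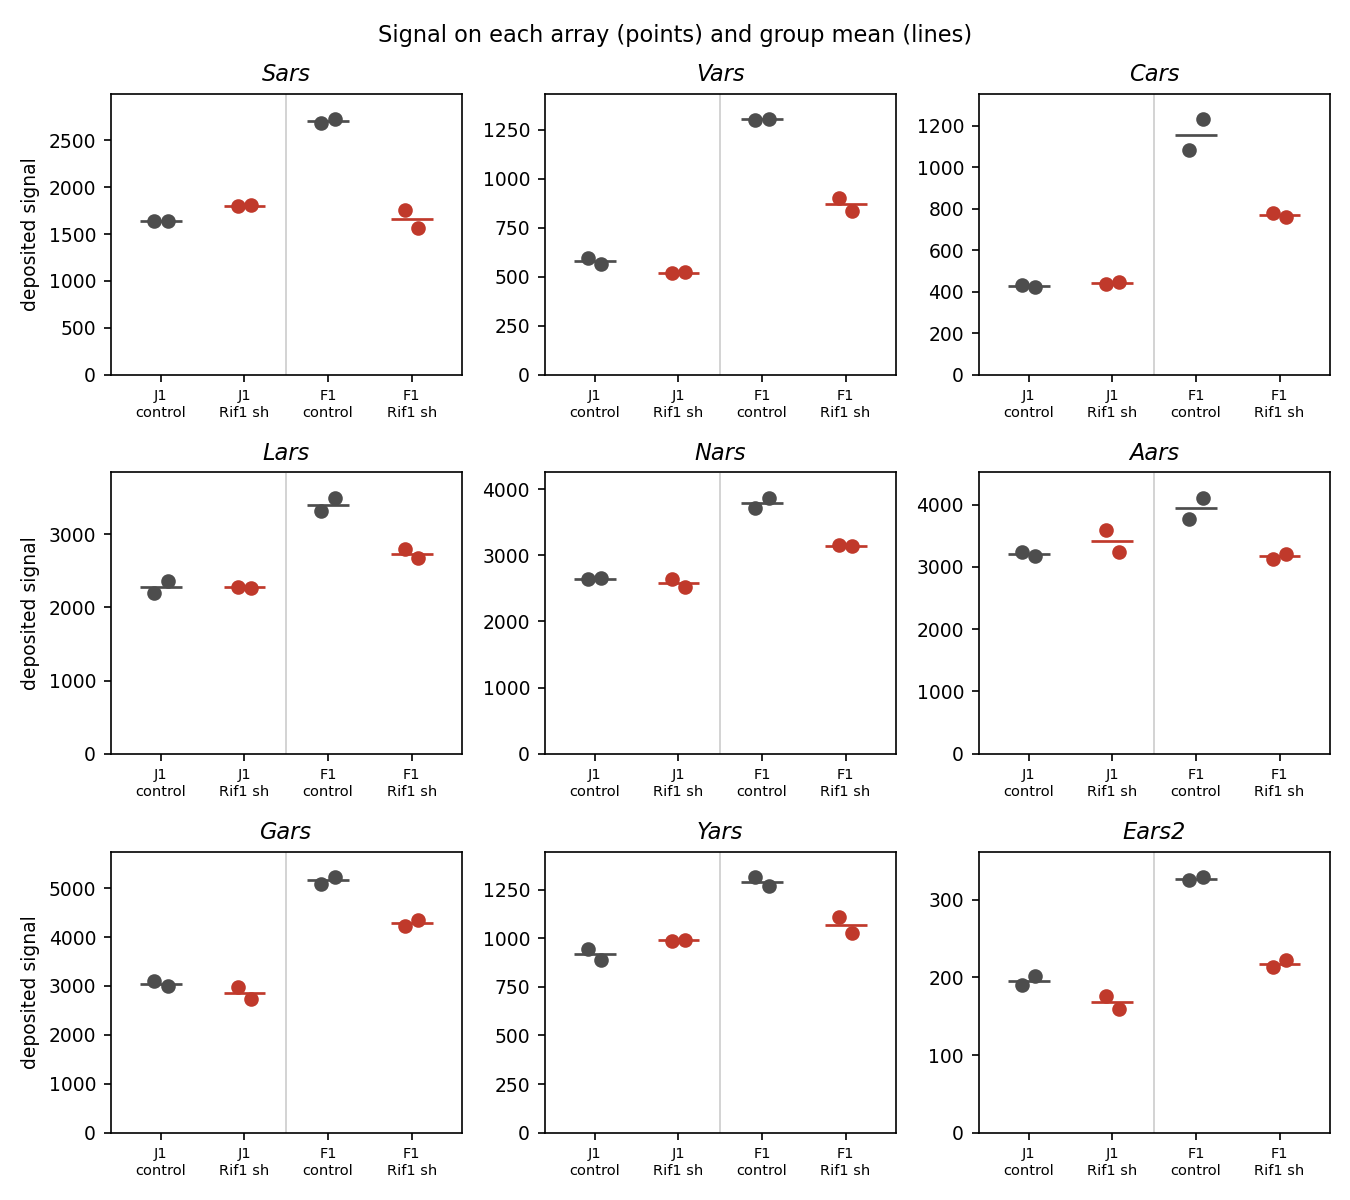
Deposited signal (linear axis from 0) on each of the 8 arrays for the 8 cytosolic synthetases that fell in F1 and for the mitochondrial Ears2. Points are arrays, lines are means of 2 arrays, and J1 and F1 were scaled to different levels; in all 9 panels both F1 Rif1 shRNA arrays lie below both F1 controls, as for Sars at 1759 and 1565 below 2681 and 2727.

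The remaining 11 cytosolic genes did not pass in F1. Farsa (-0.20), Eprs (-0.19), Tars (-0.17) and Mars1 (-0.16), for phenylalanine, glutamate and proline, threonine and methionine, came closest, with limma adjusted p from 0.0532 for Eprs to 0.0948 for Farsa. One of the other Eprs probe sets passed, at -0.37. The values were -0.10 each for Iars, Farsb and Kars, -0.08 for Qars, -0.06 for Wars, 0.02 for Rars and 0.06 for Hars, with standard errors of 0.05 to 0.08. Probe sets disagreed for Wars, the tryptophanyl enzyme: 1 of its other 3 passed, at -0.40. They disagreed for Farsb as well, where a probe set with a mean signal of 109.6 in controls and 159.7 in knockdown arrays rose by 0.37, while the brightest, with means of 3801 and 3633, had -0.10.

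Counted over probe sets instead of genes, 13 of 40 cytosolic ones fell in F1 and 1 rose, beside 6.81% and 8.28% of all 31605 probe sets tested, and 36 had a negative log2 fold change. Arrays did not overlap between the F1 groups for 14 of the 19 genes, all 14 of them lower with Rif1 shRNA, where 31.1% of all genes lay wholly lower and 36.9% wholly higher. The summed signal of the 19 brightest probe sets was 52848 and 54155 on the F1 control arrays and 46932 and 46763 on the knockdown arrays. In bulk RNA, fewer cells of a type and less RNA per cell cannot be told apart.

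**Figure D2:**
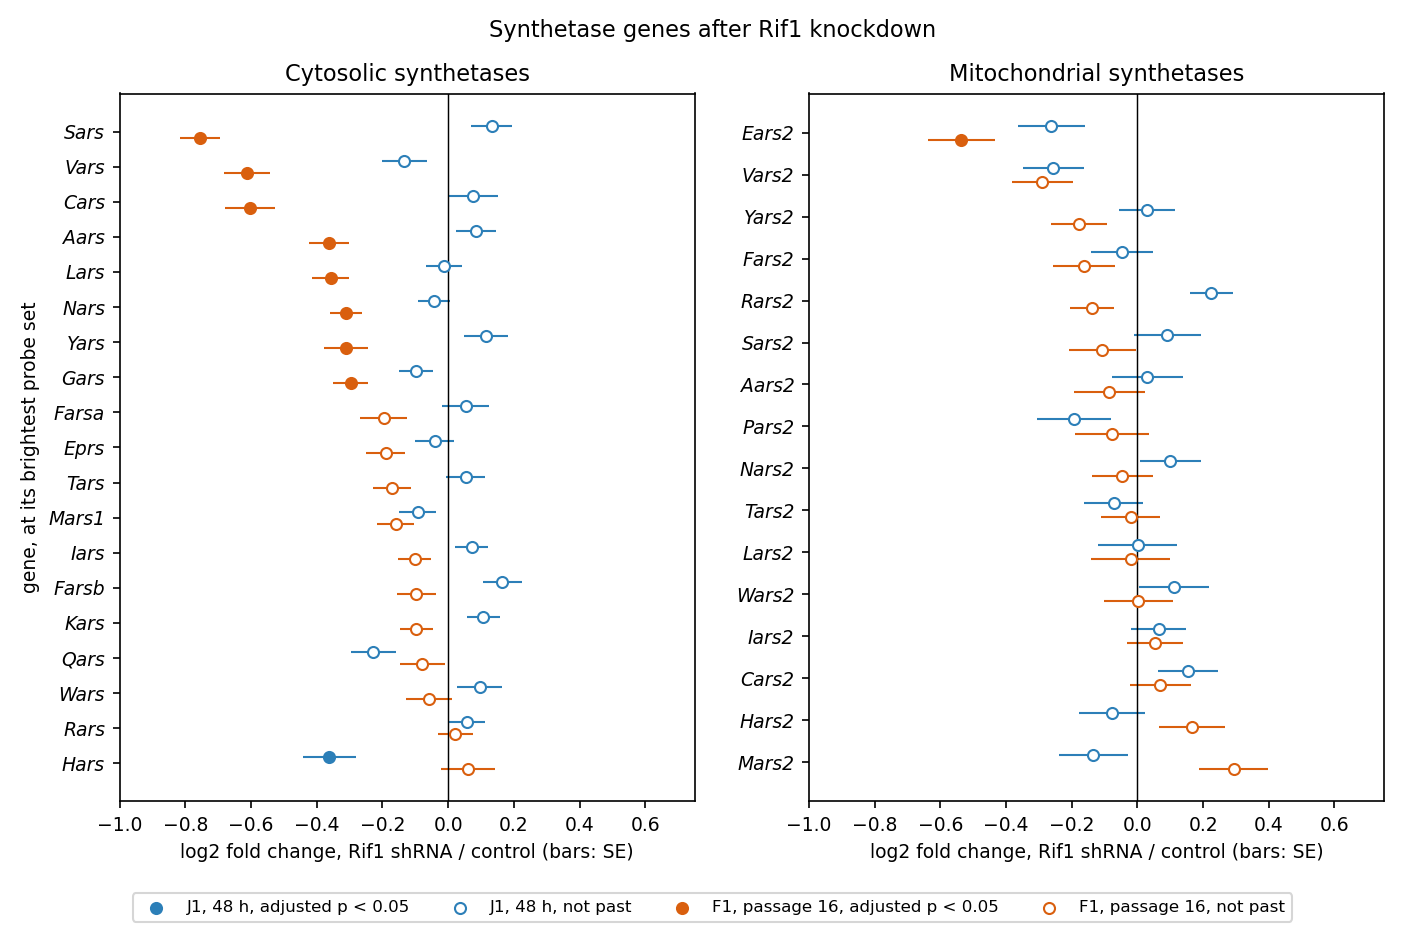
Log2 fold change of Rif1 shRNA over control for each synthetase gene, with its standard error as a bar, in J1 (blue) and F1 (orange); filled points passed an adjusted p under 0.05 (limma, 2 arrays a group). The upper 8 cytosolic genes are filled in F1, from -0.76 for Sars to -0.30 for Gars, and of the mitochondrial genes only Ears2, at -0.54, is.

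The 8 genes that fell can be set against lists that divide the family, which were chosen with earlier results of these data known. Of the 13 cytosolic synthetases listed as amino acid response genes, 8 fell in F1 (61.5%, beside 8.2% of all genes called lower). All 13 had a negative log2 fold change, with a median of -0.31. Of the 6 outside that list (Farsa, Farsb, Hars, Kars, Qars and Rars), 0 fell and the median was -0.09; at an unadjusted p under 0.05 limma gave 1 lower. Of the 7 analysed enzymes held in the multisynthetase complex, 1 fell, namely Lars (14.3%), with a median of -0.10. With 7 genes, 1 call is not set apart from the 8.2% of all genes. Of the 12 outside the complex 7 fell (58.3%), with a median of -0.30. These splits are descriptions without a test and no independent evidence, and the lists overlap in their members.

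The start regions of these genes were read for the core of the C/EBP-ATF response element, TGATGNAA on either strand, to which ATF4 with a C/EBP partner is known to bind. RefSeq start regions (GRCm38.p6, 250 bases before to 50 after the start) were matched for 26 of the 35 genes. The core was present in 5 of 12 cytosolic genes, or 41.7%, and in 0 of 14 mitochondrial genes, while 4.51% of all 27025 genes in the table held it. Of the 8 cytosolic genes that fell in F1, 4 were matched and 3 of these held it, namely Aars, Gars and Yars. Tars and Iars, which did not pass, also held it, and Sars, with the largest fall, did not within these 300 bases. A match is a description of letters and shows no binding.

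The stretches with a match are shown for the 5 cytosolic genes. The core is in capitals, each line runs 5′ to 3′ along the gene's strand, and a core on the other strand appears as its reverse complement. The upstream stretches of Aars (chr8:111033690-111033777, plus strand), Gars (chr6:55037931-55038000, plus strand) and Tars (chr15:11399659-11399713, minus strand) have the core beginning 112, 30 and 15 bases before the start.
Aars: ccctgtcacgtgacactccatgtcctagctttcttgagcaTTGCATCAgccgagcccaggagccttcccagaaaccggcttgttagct
Gars: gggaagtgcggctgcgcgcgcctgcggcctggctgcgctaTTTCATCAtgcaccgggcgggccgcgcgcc
Tars: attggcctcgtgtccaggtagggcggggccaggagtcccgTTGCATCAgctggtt

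In Yars (chr4:129189895-129189924, plus strand) and Iars (chr13:49682126-49682155, plus strand) the core lies just inside the transcribed part, from base 4 and base 8. Aars holds a second core from base 10, which is not shown. Yars is the only one of the 5 with the core in the forward direction.
Yars: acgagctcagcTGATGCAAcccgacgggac
Iars: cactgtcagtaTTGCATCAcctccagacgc

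Of the 16 mitochondrial synthetases 1 fell and 0 rose in F1 (limma). This is 6.25% lower, near the 8.2% of all genes called lower, while 10.6% of all genes were called higher. At an unadjusted p under 0.05 there were 2 lower and 1 higher. The median log2 fold change was -0.06, with 11 genes below 0 and 5 above. Ears2, the mitochondrial glutamyl enzyme, read 325 and 329 in F1 controls and 213 and 222 with Rif1 shRNA. This is a log2 fold change of -0.54 (SE 0.10, limma adjusted p = 0.00443), with 68.9% of the control level remaining, and the adjusted p was 0.0646 without Rif1 shRNA replicate 1. Of the other 3 probe sets of Ears2, 2 were too dim to be tested, and the third, at a signal of 35.3 in controls, had 0.06.

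Vars2 and Mars2 came next by p in F1. Vars2, the valyl enzyme of mitochondria, read 283 and 296 in controls and 243 and 233 in knockdown cells (log2 fold change -0.29, SE 0.09, limma adjusted p = 0.0594). Mars2, the methionyl one, read 85.05 and 80.2 against 113 and 112, higher with Rif1 shRNA (0.29, SE 0.10, limma adjusted p = 0.0896). Neither group overlapped the other for these 2 genes, yet neither passed. With only the 4 F1 arrays in the fit both did, with limma adjusted p of 0.0142 and 0.0243. In that fit calls over all probe sets also went from 2616 higher and 2152 lower to 4122 and 4005.

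Rars2, Yars2 and Fars2 lay at -0.14, -0.18 and -0.16 in F1. Rars2, the arginyl enzyme, read 978 and 1017 against 937 and 937, Yars2, the tyrosyl one, 651 and 591 against 563 and 564, and Fars2, the phenylalanyl one, 235 and 254 against 222 and 220. Each of these groups was lower with Rif1 shRNA by less than the test could separate (limma adjusted p of 0.210, 0.216 and 0.316). The dimmer probe set of Yars2 passed, at -0.42. The other 10 genes had values from -0.11 for Sars2 to 0.17 for Hars2: Aars2 -0.09, Pars2 -0.08, Nars2 -0.05, Tars2 and Lars2 -0.02, Wars2 0.00, Iars2 0.05 and Cars2 0.07.

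The cytosolic minus the mitochondrial median log2 fold change was -0.13 in F1 and 0.04 in J1, and the difference between the classes was not tested. The J1 value was 0.07 without J1 control replicate 1, 0.06 without J1 control replicate 2, and 0.02 without either J1 Rif1 shRNA array. In 13 cases the cytosolic and the mitochondrial enzyme of 1 amino acid could be paired, and in F1 the cytosolic gene had the lower log2 fold change in 12 of them, with a median difference of -0.27. The widest gaps were those of Cars over Cars2 (-0.60 and 0.07) and Sars over Sars2 (-0.76 and -0.11), and the exception was the arginyl pair, Rars at 0.02 and Rars2 at -0.14. In J1 the cytosolic gene was lower in 6 of the 13 pairs. The test was less precise for the mitochondrial genes, whose median standard error was 0.10 against 0.06 for the cytosolic ones.

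**Figure D3:**
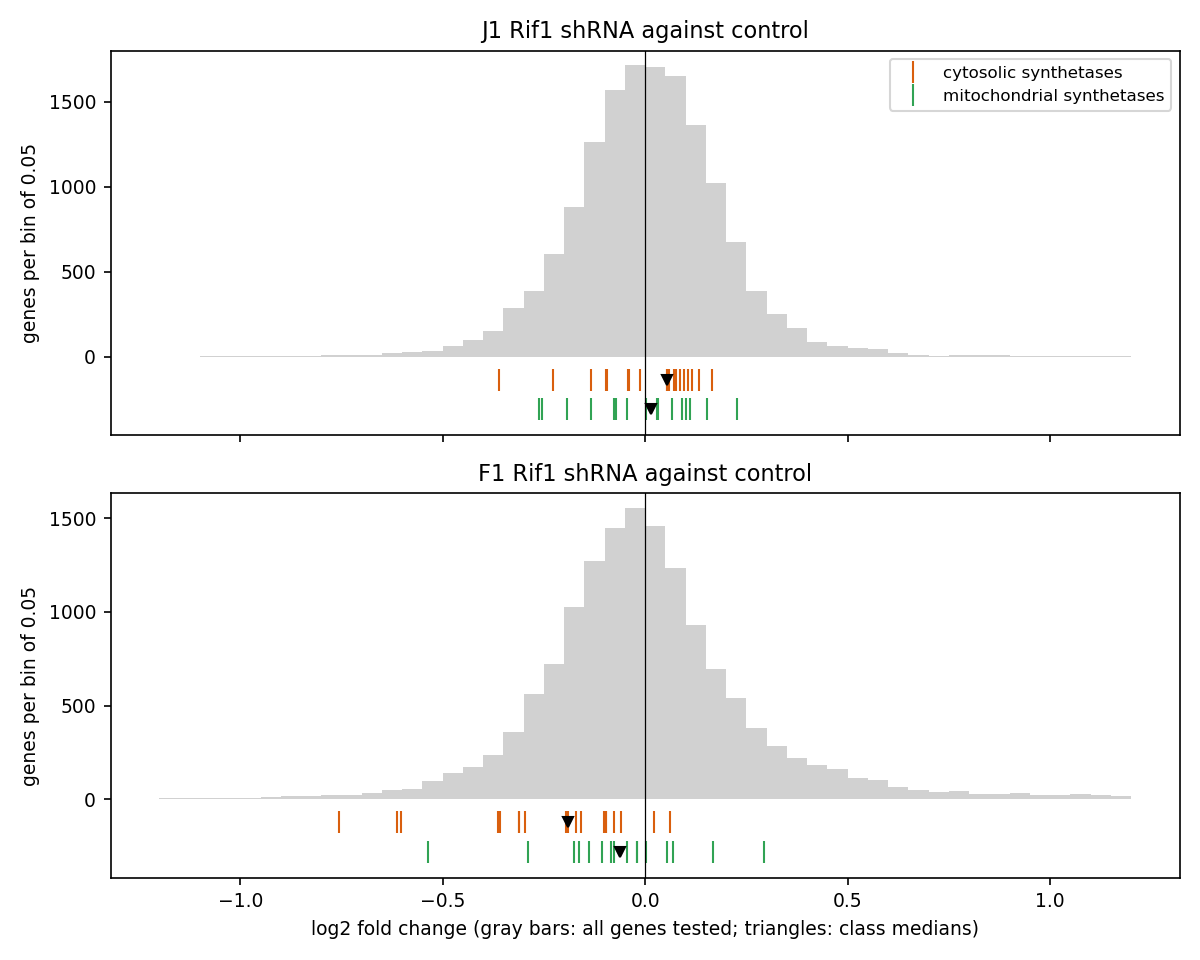
Distribution of log2 fold changes over the 14714 genes tested (gray bars, genes per bin of 0.05; genes beyond the plotted range are not drawn) with each cytosolic (orange) and mitochondrial (green) synthetase as a tick and the class medians as triangles, for J1 (upper) and F1 (lower). In F1 the cytosolic median lies at -0.19 and the mitochondrial one at -0.06; in J1 they lie at 0.05 and 0.02.

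In J1 cells, 48 h after transfection, the family showed little change. Of the 19 cytosolic genes 1 fell and 0 rose, and of the 16 mitochondrial genes 0 passed (limma), where 2.17% of all genes were called lower and 1.86% higher. At an unadjusted p under 0.05 there were 2 lower and 1 higher in each class. The medians were 0.05 and 0.02, beside 0.01 over all genes. The mitochondrial median turned to -0.0541, -0.00546 and -0.0163 without J1 control replicate 1, J1 control replicate 2 and J1 Rif1 shRNA replicate 1, and to -0.0516 over all probe sets, so it has no settled direction. None of the 8 genes that fell in F1 passed in J1, where their log2 fold changes ran from -0.13 for Vars to 0.13 for Sars.

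Hars, the histidyl enzyme, was the gene that fell in J1. It read 1368 and 1421 in controls and 981 and 1173 with Rif1 shRNA (log2 fold change -0.36, SE 0.08, limma adjusted p = 0.0387), and its other probe set fell too, by 0.27 (limma adjusted p = 0.0337). The groups did not overlap. Fitted to the 4 J1 arrays alone, the adjusted p was 0.104. Leaving out any 1 array other than J1 Rif1 shRNA replicate 2 gave 0.0603 to 0.201, and leaving out that array gave 0.0134.

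Qars and Farsb followed among cytosolic genes in J1. Qars, the glutaminyl enzyme, read 1696 and 1521 in controls against 1307 and 1387 (log2 fold change -0.23, SE 0.07, limma adjusted p = 0.104). Farsb, a subunit of the phenylalanyl enzyme, read 1247 and 1343 against 1502 and 1409 (0.16, SE 0.06, limma adjusted p = 0.172). Neither passed, although the arrays of each gene did not overlap. Arrays were separated in J1 for 5 cytosolic genes wholly lower and 6 wholly higher, and 20.8% and 22.2% of all genes lay so.

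Among mitochondrial genes in J1, Rars2 read 504 and 509 in controls against 601 and 567 (log2 fold change 0.23, SE 0.07, limma adjusted p = 0.0981). Vars2 read 181 and 165 against 141 and 158 (-0.26, SE 0.09, limma adjusted p = 0.178), and Ears2 190 and 201 against 177 and 160 (-0.26, SE 0.10, limma adjusted p = 0.213). None of the 3 passed, although their arrays did not overlap. The J1 control and knockdown arrays also differed in actin's 3′ over 5′ signal, a sign of RNA quality, at 2.71 and 2.61 against 2.18 and 2.17, while F1 arrays lay at 1.33 to 1.41. The part of this in the J1 values was not tested.

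The F1 effect was set against the J1 effect within 1 fit, which used 1 spread per probe set for both settings. The median SD of arrays about their group means was 0.115 in J1 and 0.066 in F1, a gap that this shared spread does not reflect. For the cytosolic genes the difference passed for 7 that were lower in F1 and 1 that was higher, where 4.37% and 6.25% of all genes were called so. Sars had the largest difference, at -0.89 (limma adjusted p = 0.000169), followed by Cars at -0.68 (limma adjusted p = 0.00316). Vars (-0.48), Aars (-0.45), Yars (-0.43), Lars (-0.35) and Nars (-0.27) passed as well, with limma adjusted p from 0.00875 to 0.0341. On the J1 arrays Cars read 432 and 425 in controls against 438 and 449, and Aars 3246 and 3184 against 3598 and 3245. Gars, which fell in F1, had a difference of -0.20 and did not pass (limma adjusted p = 0.142).

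Hars was the gene with a positive difference, at 0.42 (limma adjusted p = 0.0454), from 2023 and 1970 in F1 controls and 2248 and 2019 with Rif1 shRNA, which overlap. Its other probe set also passed for the difference. Of the 16 mitochondrial genes 1 passed, as lower (6.25%, near the 4.37% of all genes called lower). This was Rars2 at -0.36 (limma adjusted p = 0.0357), which combines a value of 0.23 in J1 with -0.14 in F1, neither past the threshold. Mars2 had 0.43 and Ears2 -0.27 (limma adjusted p = 0.109 and 0.299), Mars2 from J1 signals of 117 and 120 in controls against 109 and 116. Leaving out 1 array gave 3 to 8 cytosolic genes called lower: 3 without F1 control replicate 2 or F1 Rif1 shRNA replicate 2, and 4 without the other F1 control or the other F1 Rif1 shRNA array. The strain, the time and the way the shRNA was delivered differ between the settings and cannot be told apart. The Rif1 level left, actin's 3′ over 5′ signal and the shift of feeder fibroblast markers (given below) differ too, and their part was not tested.

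Related genes were read from lists for their place in the same process. The scaffold genes of the multisynthetase complex did not pass in F1 (0 of 3; unadjusted p under 0.05 for 1): Eef1e1 had -0.14, Aimp2 0.13 and Aimp1 0.02. Cytosolic translation factors gave 0 of 8 (limma; 0 at an unadjusted p under 0.05), with a median of -0.02 and with Eef2, Eif4e, Eif2s2 and Eef1d between -0.08 and 0.03. Of 23 factors of mitochondrial translation and tRNA modification, 2 fell and 1 rose in F1, with a median of 0.05. These shares of 8.7% and 4.35% are near and below the 8.2% and 10.6% of all genes called lower and higher. The 3 genes were Gfm2, a ribosome recycling factor (-0.38), Trit1, a tRNA isopentenyl transferase (-0.29), and Trnt1, which adds the CCA end to tRNAs (0.30), and Gfm1, an elongation factor, had 0.20 without passing.

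Genes of the amino acid response other than synthetases were mostly lower in F1 as well. Of 31 on the list, 20 fell and 3 rose in F1, with a median of -0.31. In J1 0 fell and 3 rose (limma), with a median of 0.12 and 26 genes above 0. At an unadjusted p under 0.05, limma gave 12 higher and 1 lower in J1. Of all 14714 genes, 1387 were higher and 1524 lower at that threshold. The F1 shares were 64.5% lower and 9.68% higher, against 8.2% and 10.6% of all genes, so the share that rose was at the level of all genes. In J1 9.68% rose, against 1.86% of all genes. The transaminase Gpt2, the stress protein gene Nupr1, the mitochondrial PEP carboxykinase Pck2 and the serine synthesis phosphatase Psph had the smallest p, at -1.64, -1.08, -1.51 and -0.69 in F1. In J1 Nupr1 rose by 0.34, and Atf5 and Ddit3 by 0.56 and 0.55. Asns, the asparagine synthetase whose product Nars uses, fell by 0.26 in F1 and had 0.05 in J1. Atf4 itself had -0.17 in F1 and 0.16 in J1 and passed in neither (limma adjusted p = 0.0646 and 0.179), while its partners and targets Atf3, Atf5 and Ddit3 rose in F1, by 1.20, 0.39 and 0.42.

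Of 13 kinases and regulators that sense uncharged tRNA and other stresses or act on eIF2, 3 rose and 1 fell in F1 and 0 passed in J1 (limma; 1 higher at an unadjusted p under 0.05). In F1 this is 23.1% higher and 7.69% lower, beside 10.6% and 8.2% of all genes. The phosphatase subunit Ppp1r15a, an ATF4 target that reverses eIF2 phosphorylation, rose by 0.43, and its relative Ppp1r15b fell by 0.27. Eif2b4, a subunit of the exchange factor eIF2B, rose by 0.34, and Impact, an inhibitor of Gcn2 activation, by 0.26. The Gcn2 gene Eif2ak4 had -0.21 and did not pass (limma adjusted p = 0.276).

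**Figure D4:**
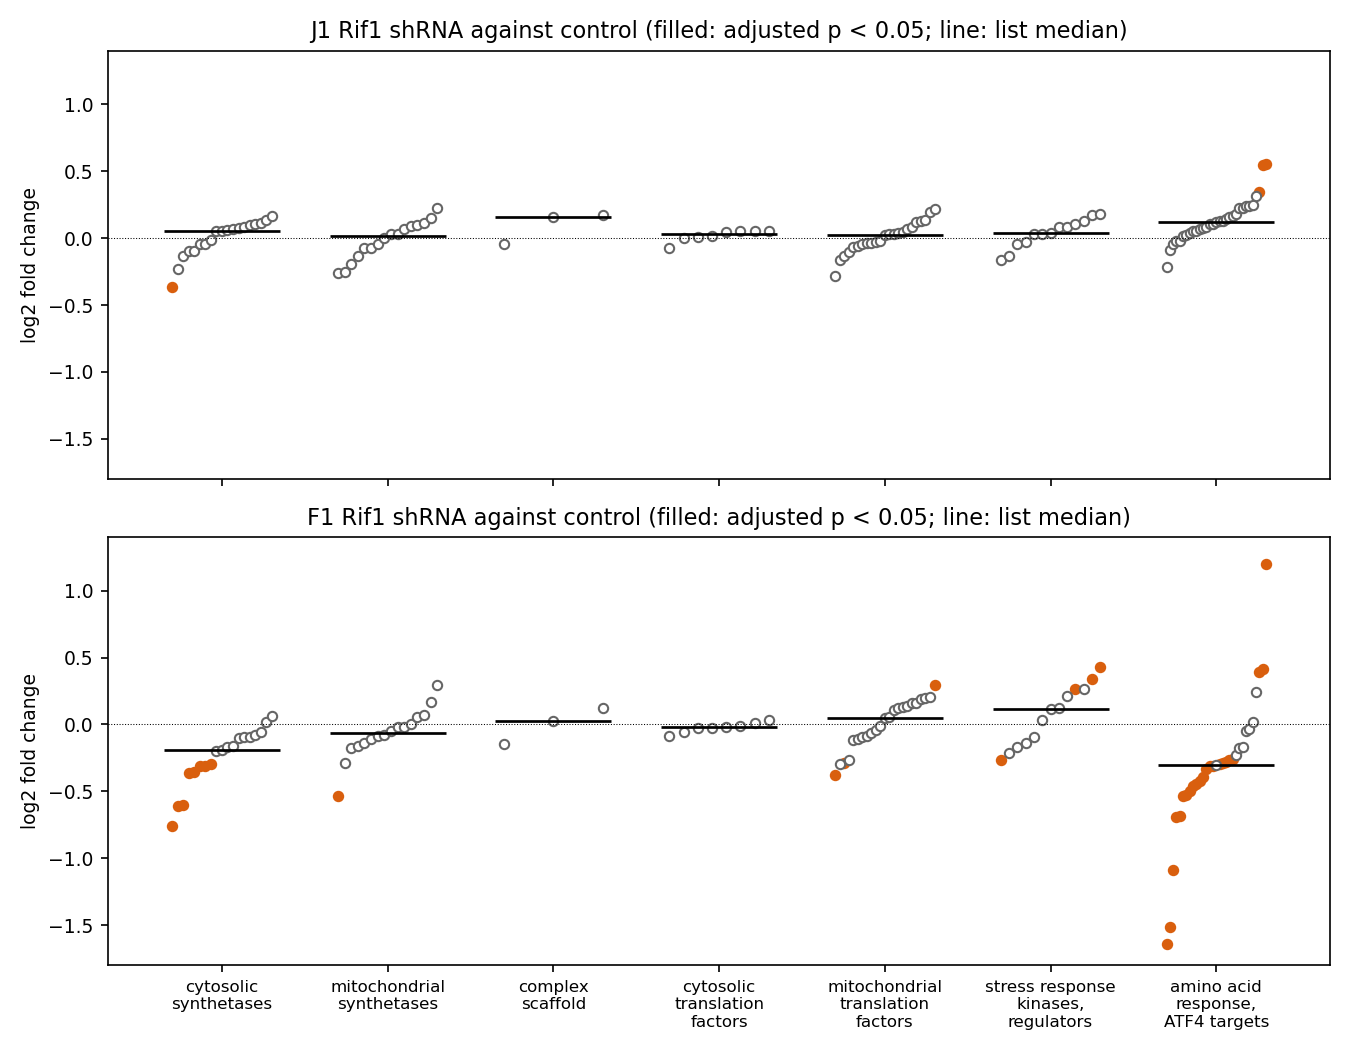
Log2 fold changes of the synthetases and of 5 related gene lists in J1 (upper) and F1 (lower), 1 point per gene at its brightest probe set, ordered within a list; filled points passed an adjusted p under 0.05 (limma) and lines are list medians. In F1 the medians are -0.19 for the cytosolic synthetases and -0.31 for the amino acid response list, and the 8 cytosolic translation factors stay between -0.08 and 0.03.

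Markers of feeder fibroblasts moved with the F1 groups. Of 26 tested, 23 rose and 0 fell in F1 (88.5% higher, beside 10.6% of all genes), and their summed signal was 23349 and 23211 on control arrays and 46475 and 45149 on Rif1 shRNA arrays. In J1 0 rose and 6 fell (23.1% lower, beside 2.17% of all genes), with sums of 19027 and 17885 against 16369 and 16310. None of these markers was at the floor of the scale, a signal of 1. The lowest group mean was 27.9, which is dim beside the array medians of 61.0 to 69.3. The summed signal of the 10 stem cell markers was 55932 and 57664 in F1 controls and 56243 and 55188 in knockdown cells, where 5 of them fell and 1 rose, beside 8.2% and 10.6% of all genes. The part of these cell markers in the synthetase values was not tested.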

How the data were processed

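Deposited values were linear intensity signals per probe set, made by the authors with MAS5 per the submitters' processing notes (version not given in the sources used here). Members, lists and tests were chosen with earlier results of these data known. Signals were quantile normalized across the 8 arrays as log2(signal + 18), where 18 is their 10th percentile. Then 64 control probe sets were removed, and a probe set was tested if 2 or more arrays had it over that array's 40th percentile (31605), among them 68 of the 72 synthetase probe sets; each of the 35 genes had 1 or more. One limma model (3.58.1, R 4.3.3) of the 4 group means took all 8 arrays, with eBayes and its intensity trend (two-sided, Benjamini-Hochberg over all tested probe sets; 4 residual and 6.94 prior degrees of freedom). The fit recovered known changes in simulated data. Symbols came from the platform annotation, and 1 probe set naming Aars and Exosc6 together was left out. Every synthetase is named. Signals are given for the 8 cytosolic and 6 mitochondrial genes with the smallest F1 p, and for 3 of each class in J1 and for the difference; from the other lists the 4 with the smallest F1 p are named. Asns, Atf4, Atf3, Atf5, Ddit3 and Eif2ak4 were added after their values were seen. The number of arrays limits precision. A planned protein comparison was not made here. Alternatives were other offsets, filters, scalings, spreads, blocks, probe sets and each array left out.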

Additional observations from a re-analysis of the deposited data

Results flagged for a closer look

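The F1 effect differed from the J1 effect, by the contrast of the difference in limma (adjusted p under 0.05), for 9 of 35 synthetase genes. Of 19 cytosolic genes 7 were lower (36.8%) and 1 higher (5.26%). Of 16 mitochondrial genes 1 was lower (6.25%) and 0 higher. Among all genes tested 4.37% were called lower and 6.25% higher, so the higher call and the mitochondrial call are near those shares. On the log2 scale, F1 minus J1, the values were -0.89 for Sars, -0.68 for Cars, -0.48 for Vars, -0.45 for Aars, -0.43 for Yars, -0.35 for Lars, -0.27 for Nars, -0.36 for Rars2 and 0.42 for Hars. Sars and Cars passed under each of the 17 alternatives fitted to their probe sets, Aars under 15, Vars under 14, Lars and Yars under 12, Hars under 8, and Nars and Rars2 under 7. Groups of 2 arrays allow no check for a single outlying array.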

How the results depend on the processing

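In F1, 7 to 10 cytosolic genes were lower when 1 array was left out and 8 to 11 under the other settings, with medians of -0.20 to -0.16; 1 was higher when all probe sets of a gene were used. The cytosolic minus mitochondrial median was -0.16 to -0.12 in F1 and 0.02 to 0.07 in J1 without 1 array. For mitochondrial genes in F1, 2 were lower with the filter at the 60th percentile, normalization within each setting, only the 4 arrays of the setting, or all probe sets, and 0 to 2 without 1 array. Mars2 passed as 1 higher gene with the values as deposited, normalization within each setting or only the 4 arrays. The mitochondrial F1 median was -0.0159 with the values as deposited, -0.0812 with all probe sets and -0.0636 to -0.0377 without 1 array. In J1, Hars was lost (0 lower) with only the 4 arrays or no intensity trend, and 0 to 1 were lower without 1 array; the cytosolic median was 0.0037 with all probe sets and 0.00596 to 0.0547 without 1 array, and the mitochondrial one -0.0541 to 0.0342 without 1 array and -0.0516 to 0.0158 under the other settings. For the difference, 0 cytosolic genes were higher with no filter or no intensity trend and 0 to 1 without 1 array; 3 were lower with no intensity trend and 3 to 8 without 1 array, with medians of -0.27 to -0.19. Rars2 was lost (0 lower) with no filter, the values as deposited or no intensity trend, and 0 to 1 were lower without 1 array. Calls over all probe sets moved too, so these member counts cannot be read apart from them. Lower calls in F1 went from 2152 to 1632 with no intensity trend and to 4005 with only the 4 arrays. In J1 they went from 549 to 171 and 128 under the same settings, and for the difference from 1066 to 676 with no intensity trend. The causes were not tested. Of 1852 values of single genes under alternatives, 40 had the opposite sign, and 0 of these passed as reported or under the alternative.

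Replicate numbers are not stated to pair the arrays, and deviations of same-numbered arrays correlated at -0.34 in J1 and 0.19 in F1. With the replicate number as a block, calls over all probe sets went from 455 higher and 549 lower to 233 and 235 in J1, and from 2616 and 2152 to 2058 and 1626 in F1. The block left 8 cytosolic genes lower in F1 and 1 in J1, but the differences of Nars and Rars2 no longer passed, which left 6 cytosolic and 0 mitochondrial genes lower. With the J1 numbers crossed, chosen after seeing the data, 2 mitochondrial genes were lower and 1 higher in F1.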
